A study of Mus musculus with 6 samples.

Results

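The regulators of epithelial-mesenchymal transition (EMT) and the mesenchymal markers examined here were 8 genes, the transcription factors Snai1, Snai2, Twist1, Twist2, Zeb1 and Zeb2 and the marker genes Vim and Fn1, taken by gene name from the 30315 genes listed in each library. All 8 were listed once, and 5 of them (Snai2, Zeb1, Zeb2, Vim and Fn1) averaged 1 FPKM or more over the 6 libraries, as did 12009 genes in all. FPKM, the unit of the deposited table, scales a gene's fragments to the length of its exons and to the size of the library. The libraries came from mouse primary renal tubular epithelial cells (TECs) of the C57BL/6 strain, which are cells taken from kidney tubules and grown in culture, with 3 transfected with the small interfering RNA siSox9, which targets Sox9, and 3 with the control siRNA siNC. Every culture had been put through hypoxia/reoxygenation (H/R), a model of ischemic injury in culture, with 6 h at 1% oxygen in medium without glucose followed by 18 h in complete medium, starting 12 h after transfection. No library without H/R was analysed here, so the comparison concerns injured cells. It concerns a partial reduction of Sox9, a transcription factor of kidney development and tubule repair, to 34.2% of its siNC level. The labels do not state whether the 3 libraries of a group came from separate cultures or animals, so the p-values measure the spread between these samples, which may be technical.

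EMT is a program in which epithelial cells loosen their junctions and take on features of mesenchymal cells. The zinc finger factors of the Snail family (Snai1, Snai2) and the Zeb family (Zeb1, Zeb2) bind E-box sequences in DNA and repress epithelial genes such as Cdh1, which encodes E-cadherin, and the Twist factors are basic helix-loop-helix proteins that bind E-boxes as dimers with E proteins. Vimentin, the product of Vim, is the main intermediate filament protein of mesenchymal cells, and fibronectin, the product of Fn1, is a glycoprotein that cells assemble into a fibrillar matrix through integrins. In the kidney, tubule cells that survive an injury can switch on parts of this program for a time, and its persistence has been linked to fibrosis.

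The recovered totals ranged from 23893197 to 25725743 reads per library. Sox9 itself was reduced from 25.96 ± 0.496 FPKM (siNC) to 8.87 ± 0.236 FPKM (siSox9; SD, n = 3 each), the largest of 2118 falls. Libraries of the same group differed by more than sampling noise (mean chi-square of 1.89 to 6.87 per gene) and by less than libraries of different groups (20.5 to 23.3). Replicate 1 of siNC stood further from the other siNC libraries (6.57 and 6.87) than these from each other (2.66), and the calls of named genes and the list counts that changed without it are given with those results. The epithelial keratins Krt8 and Krt18 were at 2029 to 2190 and 1155 to 1292 FPKM, while Slc34a1, the sodium phosphate transporter of proximal tubules, did not exceed 0.00895 FPKM in any library.

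The DNA directly upstream of Snai1 and Twist1, and of Epcam, an epithelial surface gene, is shown because these windows hold letters that EMT factors or SOX factors recognise. RefSeq windows on GRCm38.p6 matched 5 of the 8 genes (Snai1, Twist1, Twist2, Zeb2 and Vim). The motifs were searched on both strands. The E-box CACCTG, which reads as CAGGTG on the other strand, was found in 17.2% of 32851 windows of 250 bases. The SOX core AACAAT, or ATTGTT when read from the other strand, was found in 9.42% of the windows. The related SOX core ACAAAG, whose other strand reads CTTTGT, was found in 16.5% of the windows. None of the motifs overlaps another in the sequences below, where capitals mark the matches and the sequences read 5′ to 3′ on the strand of the gene.
Snai1 upstream window, chr2:167537945-167538194, + strand: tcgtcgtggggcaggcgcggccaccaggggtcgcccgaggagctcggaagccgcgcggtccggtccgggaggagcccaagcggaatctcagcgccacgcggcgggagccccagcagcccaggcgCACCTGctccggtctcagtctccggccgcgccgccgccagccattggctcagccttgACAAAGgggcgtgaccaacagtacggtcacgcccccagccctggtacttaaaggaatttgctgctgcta
Twist1 upstream window, chr12:33957421-33957670, + strand: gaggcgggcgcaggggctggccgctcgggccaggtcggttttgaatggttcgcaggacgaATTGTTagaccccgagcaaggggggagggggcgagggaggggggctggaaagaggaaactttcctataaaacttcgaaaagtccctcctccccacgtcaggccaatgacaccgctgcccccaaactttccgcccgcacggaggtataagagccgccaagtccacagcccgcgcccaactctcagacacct
Epcam upstream window, chr17:87635729-87635978, + strand: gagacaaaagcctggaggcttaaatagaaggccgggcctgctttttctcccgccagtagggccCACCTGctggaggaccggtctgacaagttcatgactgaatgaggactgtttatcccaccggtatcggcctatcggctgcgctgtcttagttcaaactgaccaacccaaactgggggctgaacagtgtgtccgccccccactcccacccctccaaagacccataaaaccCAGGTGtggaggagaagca
Counted back from the RefSeq transcript start that follows each window, where -1 is the last base of the window, the Snai1 window held CACCTG from -126 to -121 and ACAAAG from -69 to -64. The Twist1 window held ATTGTT from -190 to -185, and the Epcam window held CACCTG from -187 to -182 and CAGGTG from -19 to -14. Of the windows not shown, 1 of the 4 Zeb2 windows, before a transcript start inside the gene, held ACAAAG from -62 to -57, and those of Vim and Twist2 held no match. A match describes the letters of the window and is not evidence of binding.

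Among the 8 genes, Fn1, Vim and Snai2 were lower with siSox9, and the other 5 did not pass the test or were too low for it. Fn1 fell to 60.0% of its siNC level, Vim to 85.5% and Snai2 to 73.2%, each with limma on log2(FPKM + 1) and a Benjamini-Hochberg adjusted p under 0.05. That is 3 of 5 genes tested, all lower, where 30.4% of all 12009 genes passed the test in either direction, 17.6% lower and 12.8% higher. The groups did not overlap in 4 of the 5 (Fn1, Vim, Snai2 and Zeb1), against 46.3% of all genes tested. Of all genes tested, 1532 were higher and 2118 lower; on median-centred values 1959 were higher and 1765 lower, and on quantile-normalized values 1812 and 1797. Fn1 and Vim passed the test under both of these scalings, while Snai2 passed on median-centred values and lost its call on quantile-normalized values (adjusted p = 0.0514), with the same direction. Without the minimum of 1 FPKM, all 8 genes entered the fit and 2, Vim and Fn1, passed it, where 9.6% of 28122 genes did, and the same 2 passed limma voom on the recovered reads, where 22.2% of 17944 genes did.

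**Figure D1:**
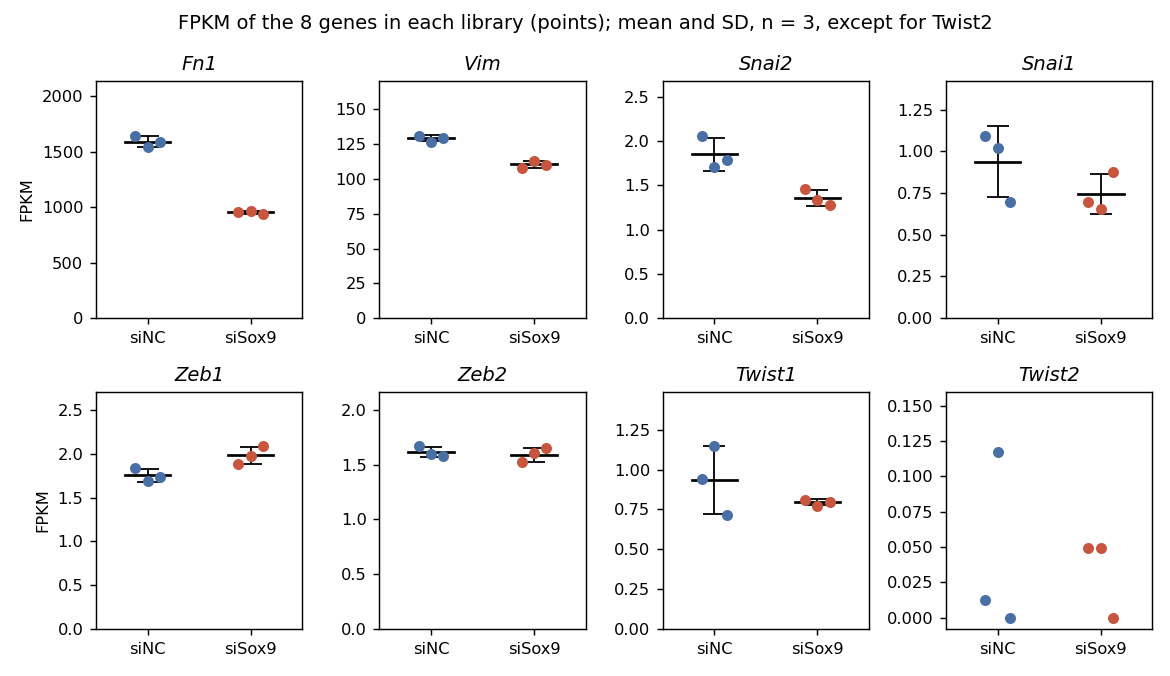
FPKM of each of the 8 genes in each library, with a separate linear axis per gene; points are libraries, the horizontal line is the mean and the bars are the SD (n = 3 per group; neither is drawn for Twist2, which was at 0 in 2 libraries). The siSox9 libraries of Fn1, Vim and Snai2 lie below all siNC libraries, those of Zeb1 lie above, and those of Snai1, Zeb2, Twist1 and Twist2 overlap with siNC.

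Fn1 (ENSMUSG00000026193, - strand of chromosome 1, 71585520 to 71653200, 45 merged exons) was among the most abundant transcripts of these cells. It was at 1642, 1542 and 1583 FPKM in the siNC libraries and at 958, 965 and 937 FPKM in the siSox9 libraries. All 3 siSox9 libraries were far below all 3 siNC libraries, and the libraries of a group lay close together. By FPKM its rank among all genes was 11 to 14 with siNC and 21 to 23 with siSox9. The mean was 1589 ± 50.0 FPKM (SD, n = 3) with siNC and 954 ± 14.55 FPKM (SD, n = 3) with siSox9, a 1.67-fold difference. On the log2(FPKM + 1) scale the change was -0.74 (SE 0.04, 95% interval -0.82 to -0.65, limma with Benjamini-Hochberg adjusted p = 5.94e-05), at rank 66 of the 2118 falls by size. It passed the test in 15 of 15 alternatives, with changes from -0.76 to -0.70. Exons of Fn1 share 292 bases with Apol7d on the other strand, and whether the counting used the strand is not given in the sources used here.

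Vim (ENSMUSG00000026728, + strand of chromosome 2, 13573927 to 13582826, 7 merged exons) was a well expressed gene in every library. It was at 131, 127 and 129.5 FPKM with siNC and at 108, 113 and 110.2 FPKM with siSox9. The groups did not overlap, and the gap between them was larger than the range of either. The mean was 129 ± 2.15 FPKM (SD, n = 3) with siNC and 110.4 ± 2.39 FPKM (SD, n = 3) with siSox9. The change was -0.22 on the log2(FPKM + 1) scale (SE 0.03, 95% interval -0.29 to -0.15, limma with Benjamini-Hochberg adjusted p = 0.00187). It passed the test in 15 of 15 alternatives, with changes from -0.24 to -0.19, and by size it was at rank 1414 of the 2118 falls.

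Snai2, which encodes Slug (ENSMUSG00000022676, + strand of chromosome 16, 14705852 to 14709395), was expressed at a low level. It was at 2.06, 1.71 and 1.78 FPKM with siNC, from 104, 84 and 90 recovered reads. With siSox9 it was at 1.46, 1.34 and 1.28 FPKM, from 76, 69 and 62 reads. The groups did not overlap, with replicate 1 the highest library of each group. The mean was 1.85 ± 0.185 FPKM (SD, n = 3) with siNC and 1.36 ± 0.0900 FPKM (SD, n = 3) with siSox9. The change was -0.27 on the log2(FPKM + 1) scale (SE 0.07, 95% interval -0.44 to -0.11, limma with Benjamini-Hochberg adjusted p = 0.0255) and -0.44 on voom's log2 scale of reads set against library size (adjusted p = 0.0511), since the added 1 shrinks the change of a low gene. The call was lost in 9 of 14 alternatives, always with the same direction and with adjusted p of at most 0.0839. Among these were the fits without siSox9 replicate 2 (0.0745), without siSox9 replicate 3 (0.0741), without siNC replicate 1 (0.0645) and without siNC replicate 3 (0.0570).

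Snai1, which encodes Snail (ENSMUSG00000042821, + strand of chromosome 2, 167538195 to 167542814), was lower still. It was at 1.09, 1.02 and 0.695 FPKM with siNC, from 44, 40 and 28 reads, and at 0.695, 0.656 and 0.878 FPKM with siSox9, from 29, 27 and 34 reads. Replicate 3 of siNC lay within the siSox9 range, so the groups overlapped. The mean was 0.937 ± 0.212 FPKM (SD, n = 3) with siNC and 0.743 ± 0.118 FPKM (SD, n = 3) with siSox9. The fit without the minimum gave a change of -0.15 (adjusted p = 0.523), and limma voom gave -0.32 with a 95% interval from -0.85 to 0.21 (adjusted p = 0.439). At this depth a difference was not detectable: the interval holds falls larger than that of Snai2 as well as no change. The ratio of Snai1 to Snai2, both per length of exon, was 0.506 ± 0.106 with siNC and 0.552 ± 0.117 with siSox9 (SD, n = 3 each), and the difference did not pass an exact permutation test over the libraries (p = 0.6, adjusted p = 0.6 over 2 ratios tested). With 3 libraries in each group, the smallest p an exact two-sided test can reach is 0.1.

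The Zeb genes were at about the level of Snai2. Zeb1 (ENSMUSG00000024238) was at 1.83, 1.69 and 1.73 FPKM with siNC and at 1.88, 1.98 and 2.08 FPKM with siSox9, from 420 to 515 reads per library. Every siSox9 library was above every siNC library, with a narrow gap between siNC replicate 1 and siSox9 replicate 1. The mean was 1.75 ± 0.0712 FPKM (SD, n = 3) with siNC and 1.98 ± 0.101 FPKM (SD, n = 3) with siSox9. The change of 0.11 on the log2(FPKM + 1) scale (SE 0.06, 95% interval -0.02 to 0.25) did not pass the test (limma with Benjamini-Hochberg adjusted p = 0.173), nor did it in any of 14 alternatives, where the adjusted p ranged from 0.0519 to 0.354. Its groups were ordered opposite to those of Fn1, Vim and Snai2. Exons of Zeb1 share 198 bases with Gm10125 on the other strand.

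Zeb2 (ENSMUSG00000026872, - strand of chromosome 2, 44983632 to 45117395) was at 1.67, 1.60 and 1.58 FPKM with siNC and at 1.52, 1.60 and 1.65 FPKM with siSox9, from 768 to 825 reads per library. The libraries of the groups were interleaved. The mean was 1.61 ± 0.0469 FPKM (SD, n = 3) with siNC and 1.59 ± 0.0634 FPKM (SD, n = 3) with siSox9. The change was -0.01 (95% interval -0.15 to 0.12, limma with Benjamini-Hochberg adjusted p = 0.900), and its sign turned in 5 of 14 alternatives. Exons of Zeb2 share 653 bases with the antisense gene Zeb2os, and reads of the pair cannot be told apart without strand. The ratio of Zeb1 to Zeb2 was 1.235, 1.23 and 1.26 in the siSox9 libraries and 1.10, 1.06 and 1.098 in the siNC libraries. All 3 siSox9 ratios were above all siNC ratios, and the exact permutation test gave p = 0.1, the smallest it can give (adjusted p = 0.2 over 2 ratios). The spread of this ratio was smaller than that of Zeb1 alone, with 1.24 ± 0.0171 (SD, n = 3) with siSox9 and 1.09 ± 0.0211 (SD, n = 3) with siNC. Counting error alone gives a coefficient of variation of 4.44% to 4.75% for Zeb1 and 3.55% for Zeb2 at their reads. The spread of the ratio over 3 libraries was below that, so it does not measure the precision of the ratio.

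Twist1 (ENSMUSG00000035799, + strand of chromosome 12, 33957671 to 33959829) was at 0.940, 1.145 and 0.717 FPKM with siNC and at 0.812, 0.774 and 0.797 FPKM with siSox9, from 29 to 45 reads per library. The siNC libraries spread on both sides of the siSox9 libraries. The fit without the minimum gave a change of -0.10 (adjusted p = 0.598) and limma voom gave -0.20 with a 95% interval from -0.71 to 0.31 (adjusted p = 0.631). Twist2 (ENSMUSG00000007805, + strand of chromosome 1, 91801461 to 91848028) was near the floor of detection. Its recovered reads were 1, 9 and 0 with siNC and 4, 4 and 0 with siSox9, which is at most 0.117 FPKM, and 1477 bases of its exons are shared with the antisense gene Gm29100. No fold is given for it, and the ratio of Twist1 to Twist2 was not tested because of the libraries at 0.

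**Figure D2:**
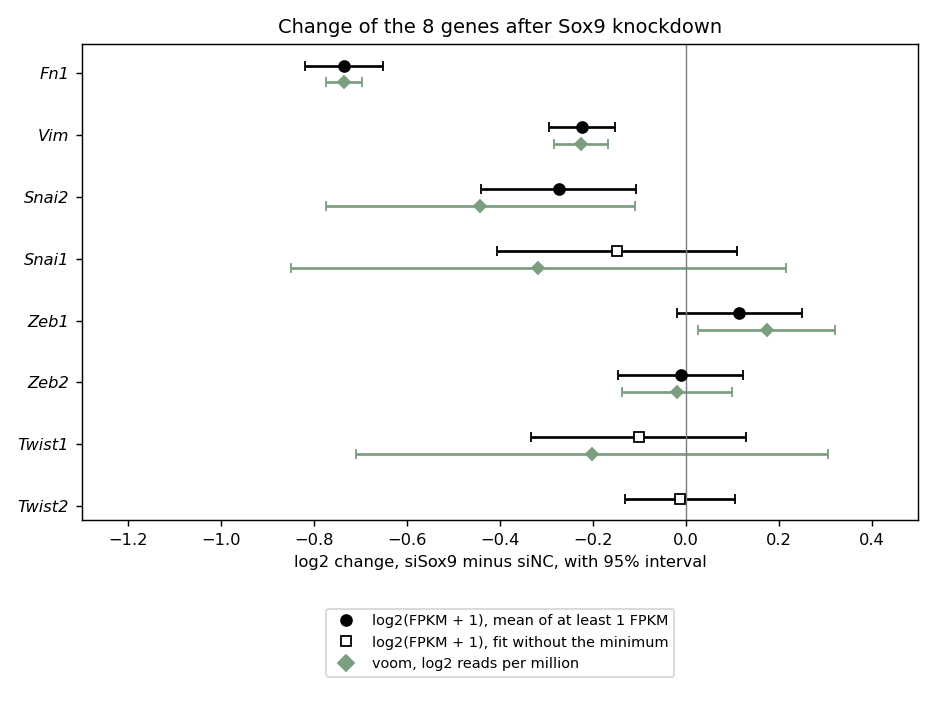
Change of each of the 8 genes, siSox9 minus siNC, in log2 units, with 95% intervals. Black circles are the fit on log2(FPKM + 1) with the minimum of 1 FPKM, open squares the fit without that minimum for the 3 genes below it, and green diamonds limma voom on recovered reads (not drawn for Twist2, whose interval runs from -2.05 to 2.44); the intervals of Fn1, Vim and Snai2 lie below 0 in both fits, and that of Zeb1 crosses 0 on the log2(FPKM + 1) scale and not in voom, where its adjusted p was 0.0871.

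Per length of exon, the 8 genes spanned from Fn1 and Vim at the top to the 6 factors at or below about the level of 2 FPKM. With siNC the order of the means was Fn1, Vim, Snai2, Zeb1, Zeb2, Snai1, Twist1 and Twist2. Fn1 was 12.3-fold above Vim, and Vim was 69.7-fold above Snai2. The libraries of Snai2 and Zeb1 overlapped, as did those of Snai1 and Twist1. Levels of different genes were not compared by a test. Their order depends on the exon lengths used, such as 19942 bases for Zeb2 and 2031 bases for Snai2. With siSox9 the order was Fn1, Vim, Zeb1, Zeb2, Snai2, Twist1, Snai1 and Twist2, with Snai2 below both Zeb genes and Fn1 8.64-fold above Vim. There, only the libraries of Twist1 and Snai1 overlapped among neighbours. The coefficient of variation between the libraries of a group was 1.53% to 3.14% for Fn1 and 1.67% to 2.17% for Vim, but 15.9% to 22.7% for Snai1, close to the 16.4% to 18.3% that counting error alone gives at its reads.

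Fibroblasts and pericytes express Fn1 and Vim strongly, so their markers were read beside the falls of these genes. The summed level of the 8 markers found of 9 (Pdgfra, Pdgfrb, Dcn, Col1a1, Col3a1, Thy1, Rgs5 and Cspg4, with Lum not matched) was 8.40 to 10.2 FPKM with siSox9 and 10.7 to 11.7 FPKM with siNC, without overlap. Of these, 2 were above the minimum, Col1a1 and Cspg4, and 0 of the 2 passed limma's test (0%, beside 30.4% of all genes). The 6 below the minimum had no test in the main fit. Among them, Thy1 was at 0.25 to 0.32 FPKM with siSox9 and 0.39 to 0.53 FPKM with siNC. Col3a1 was at 0.186 to 0.209 FPKM with siSox9 and 0.262 to 0.291 FPKM with siNC. The groups of Thy1, Col3a1 and Pdgfrb did not overlap, and those of Pdgfra, Dcn and Rgs5 did. Of all genes tested, 46.3% had groups without overlap, and no such share was taken for genes below the minimum. Dcn, a defining fibroblast gene, was at 0 to 0.0266 FPKM over the 6 libraries and Pdgfra at 0.205 to 0.246 FPKM. Pdgfrb, the receptor that marks pericytes, was at 0.550 to 0.640 FPKM with siSox9 and 0.665 to 0.896 FPKM with siNC. Col1a1, the highest of the list, was at 4.99 to 6.34 FPKM with siSox9 and 6.20 to 7.09 FPKM with siNC (log2 change -0.20, limma with Benjamini-Hochberg adjusted p = 0.118). The summed endothelial markers were 3.81 to 4.12 FPKM with siSox9 and 4.41 to 5.63 FPKM with siNC, also without overlap. Of the 1 tested, Cdh5, 0 passed (0%, beside 30.4% of all genes), and 6 were below the minimum. Cdh5, the highest, was at 1.02 to 1.75 FPKM over the 6 libraries. Pecam1 was at 0.54 to 0.61 FPKM with siSox9 and 0.65 to 0.71 FPKM with siNC. Emcn was at 61.4% of siNC and Plvap at 65.3%, both without overlap like Pecam1. The groups of Kdr, Tek and Egfl7 overlapped. Here too, groups without overlap stand beside 46.3% of all genes tested. The summed macrophage markers overlapped (169.6 to 188.7 against 169.8 to 175.2 FPKM). Of 6 tested, 1 passed (16.7%, beside 30.4% of all genes). This was Lyz2, at 67.97 to 87.8 FPKM and higher with siSox9 (log2 change 0.21). Its call was lost without the minimum (limma with Benjamini-Hochberg adjusted p = 0.0575) and without moderation (adjusted p = 0.0754). The siSox9 means were lower for C1qa (38.1 against 42.0 FPKM), C1qb (33.2 against 34.7 FPKM) and Csf1r (9.38 against 9.66 FPKM). They were higher for Cd68 (11.8 against 10.9 FPKM) and Adgre1 (1.84 to 2.60 FPKM over the 6 libraries), and these 5 did not pass. Ptprc was at 0.632 to 0.781 FPKM. The tubule markers overlapped as well (3682 to 3849 against 3500 to 3717 FPKM), with 2 of 8 tested higher, Cdh16 and Havcr1 (25%, beside 30.4% of all genes). Pax8 was at 13.9 to 14.8 FPKM with siSox9 and 14.45 to 15.9 FPKM with siNC (limma adjusted p = 0.190). Pax2 was at 9.72 to 11.28 FPKM with siSox9 and 11.24 to 12.83 FPKM with siNC (adjusted p = 0.0937). The siSox9 mean was also lower for Epcam and was higher for Krt8, Krt18 and Lrp2, and none of these passed. The call of Cdh16 held in 15 of 15 alternatives and that of Havcr1 in 8 of 15; it was lost without siSox9 replicate 2 (adjusted p = 0.0725), siSox9 replicate 3 (0.0795), siNC replicate 1 (0.0774) and siNC replicate 3 (0.0972). The part of other cell types in the falls of Fn1 and Vim was not tested, and in bulk samples fewer cells of a type and less RNA per cell cannot be told apart.

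The fibronectin system moved in both directions. Of 15 genes for fibronectin receptors, matrix assembly and their adhesion partners, 11 were tested and 9 passed, 5 higher and 4 lower (81.8%, beside 30.4% of all genes), with a median change of 0.04 beside -0.01 over all genes tested. Itga5, the alpha subunit that pairs with Itgb1 in the main fibronectin receptor, fell from 69.3 ± 3.30 to 42.2 FPKM, 61.0% of siNC (log2 change -0.70, limma with Benjamini-Hochberg adjusted p = 0.000116). Its values were 43.9, 42.3 and 40.5 FPKM with siSox9 and 73.0, 68.1 and 66.8 FPKM with siNC, with no overlap between the groups. Itgb3, the beta subunit that joins Itgav in another fibronectin receptor, fell from 16.9 FPKM to 62.5% of siNC (log2 change -0.63, adjusted p = 0.000461). The receptor subunits that rose were Itgb5 (46.9 FPKM with siNC, log2 change 0.36, adjusted p = 0.00138), Itgb6 (log2 change 0.16, adjusted p = 0.0103) and Itgb1 (979.6 ± 1.76 FPKM with siNC, log2 change 0.15, adjusted p = 0.00988). Sdc4, a heparan sulfate proteoglycan that acts as a coreceptor for fibronectin, was 1.14 times its siNC mean (log2 change 0.18, adjusted p = 0.00956). Itgav itself was at 98.8% of siNC and did not pass (adjusted p = 0.724). Tgm2, a transglutaminase that binds fibronectin and crosslinks matrix proteins, fell from 98.45 FPKM to 69.1% of siNC (log2 change -0.53, adjusted p = 0.000104). Tgm2, Itgb1 and Itgb6 were named after their values were seen. Quantile normalization took Itgb1 and Tns1 out of the genes called, leaving 3 higher and 4 lower. The call of Tns1 held in 7 of 15 alternatives, that of Parva in 12 of 15 and that of Itgb1 in 13 of 15. The genes called were also 7 on TPM, without the minimum of 1 FPKM, without siSox9 replicate 2 and without siNC replicate 3.

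**Figure D3:**
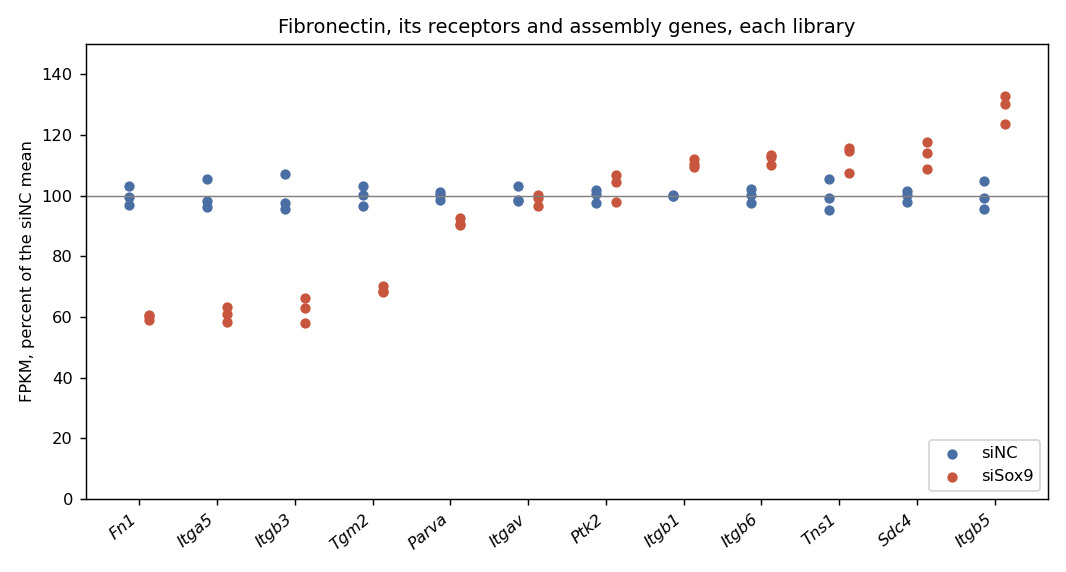
FPKM of Fn1 and of the 11 receptor, assembly and adhesion genes tested, in each library, as percent of the gene's siNC mean, ordered after Fn1 by their change; blue points are siNC and red points siSox9 libraries (3 each). Fn1, Itga5, Itgb3 and Tgm2 lie between 58.2% and 70.3% of siNC in the siSox9 libraries, Itgav and Ptk2 overlap with siNC, and Itgb5 lies between 123.5% and 133%.

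Other mesenchymal genes did not follow Fn1 as a group. Of 27 genes listed, 19 were tested and 10 passed, 5 higher and 5 lower (52.6%, beside 30.4% of all genes), with a median change of -0.08; on quantile-normalized values 3 were higher and 4 lower, and without siNC replicate 1, 5 were higher and 4 lower, with the call of Fbn1 lost (adjusted p = 0.0835). Tnc, the matrix protein tenascin-C, fell by about as much as Fn1, from 352 ± 14.3 FPKM to 59.2% of siNC (log2 change -0.75, limma with Benjamini-Hochberg adjusted p = 0.000104), and Cdh11, a cadherin of mesenchymal cells, fell from 10.8 FPKM to 69.7% (log2 change -0.47, adjusted p = 0.000550). Col5a2, a chain of type V collagen, rose from 40.3 FPKM to 1.40 times siNC (log2 change 0.47, adjusted p = 0.000556). Cdh2, which encodes N-cadherin, was at 57.8 to 61.2 FPKM with siSox9 and 61.3 to 67.9 FPKM with siNC (log2 change -0.09, adjusted p = 0.162). Acta2, the smooth muscle actin of myofibroblasts, was at 652 to 706 FPKM with siSox9 and 702 to 742 FPKM with siNC, overlapping (log2 change -0.08, adjusted p = 0.179).

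Vimentin's partners in the filament network were also split. Of 12 genes for related filament proteins, linkers and binding proteins, 8 were tested and 4 passed, 3 higher and 1 lower (50%, beside 30.4% of all genes), with a median change of 0.05. Ywhaz, a 14-3-3 protein, was the gene that fell, from 147 ± 4.35 FPKM to 71.8% of siNC (log2 change -0.47, limma with Benjamini-Hochberg adjusted p = 0.000157). Dst, the linker protein dystonin, rose to 1.20 times siNC (log2 change 0.24, adjusted p = 0.00724) and Inpp5k, an inositol phosphatase, to 1.19 times (log2 change 0.21, adjusted p = 0.0184). The call of Inpp5k was lost in 5 of 15 alternatives, among them the fits without siSox9 replicate 1 (adjusted p = 0.0645), siNC replicate 2 (0.0517) and siNC replicate 3 (0.0564). The filament protein Nes, nestin, was at 79.0 ± 7.79 FPKM with siNC and did not pass (log2 change -0.01, adjusted p = 0.938).

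Epithelial genes, several of them textbook targets of the Snail and Zeb factors, showed no common direction. Of 27 genes listed, 24 were tested and 7 passed, 4 higher and 3 lower (29.2%, beside 30.4% of all genes), with a median change of -0.02. Cdh1 was at 166, 159.8 and 155.9 FPKM with siSox9 and 168, 160.1 and 163 FPKM with siNC, and the groups overlapped (log2 change -0.03, 95% interval -0.11 to 0.05, limma with Benjamini-Hochberg adjusted p = 0.558). Epcam, whose upstream window is shown above with its E-boxes, was at 134, 130.6 and 131 FPKM with siSox9 and 123, 139.5 and 141 FPKM with siNC (log2 change -0.02, adjusted p = 0.774), with the sign turned in 4 of 14 alternatives. Prss8, the membrane protease prostasin, rose from 16.1 ± 1.03 FPKM to 1.74 times siNC (log2 change 0.76, adjusted p = 0.000191), and Cdh16, the kidney cadherin, rose from 101 to 1.28 times siNC (log2 change 0.36, adjusted p = 0.000307). Tjp1, the tight junction scaffold ZO-1, fell from 38.1 FPKM to 71.0% of siNC (log2 change -0.48, adjusted p = 0.000113), and Esrp1, a splicing factor of epithelial cells, fell from 18.9 FPKM to 71.6% (log2 change -0.45, adjusted p = 0.000216).

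**Figure D4:**
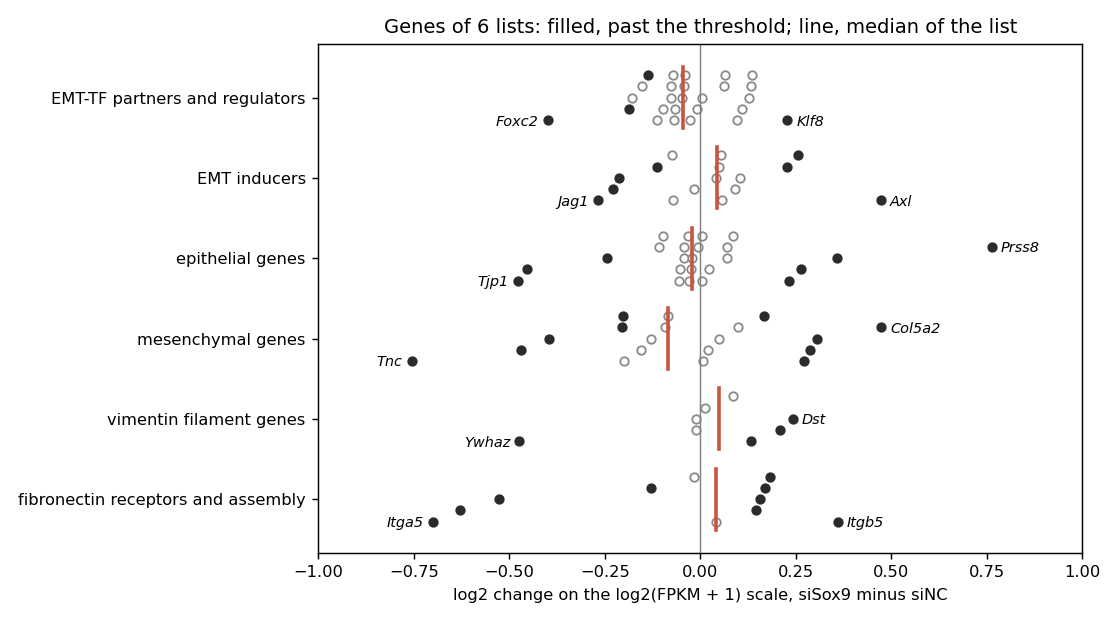
Log2 change of every tested gene in the 6 lists of genes around the EMT regulators, Vim and Fn1 (104 points; a gene in more than 1 list is drawn in each), on the log2(FPKM + 1) scale, siSox9 minus siNC. Filled points passed limma's test, open points did not, red lines are list medians between -0.08 and 0.05, and the outermost called gene on each side is named; every list holds called genes on both sides of 0.

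Among genes for proteins that work with the EMT factors or control their stability, few passed the test. Of 29 such genes 26 were tested and 4 passed, 1 higher and 3 lower (15.4%, beside 30.4% of all genes), with a median change of -0.05, and the count ranged from 2 to 9 over the alternatives, with 9 without siNC replicate 1. Foxc2, a forkhead factor that can drive EMT, fell from 1.75 ± 0.133 FPKM to 62.1% of siNC (log2 change -0.40, limma with Benjamini-Hochberg adjusted p = 0.00638). Fbxw11, an F-box protein that can mark Snail for destruction, fell from 31.4 FPKM to 87.5% (log2 change -0.19, adjusted p = 0.00695), and Klf8, a zinc finger factor, rose from 6.56 FPKM to 1.20 times siNC (log2 change 0.23, adjusted p = 0.00852). The call of Fbxw11 was lost on TPM (adjusted p = 0.0869). The remaining fall was Ctbp1, at 90.6% of siNC (log2 change -0.14, adjusted p = 0.0217), and its call held in 11 of 15 alternatives. Among the signals that induce the EMT factors, 7 of 16 tested genes passed, 3 higher and 4 lower (43.8%, beside 30.4% of all genes), with a median change of 0.05. Axl, a receptor tyrosine kinase, rose from 136 ± 5.81 FPKM to 1.39 times siNC (log2 change 0.47, adjusted p = 0.000257) and Smad3, which carries the TGF-beta signal, to 1.20 times (log2 change 0.26, adjusted p = 0.00372). Jag1, a Notch ligand, fell from 132 FPKM to 82.9% of siNC (log2 change -0.27, adjusted p = 0.00137), and Tgfb2, a TGF-beta ligand, fell from 22.6 FPKM to 84.7% (log2 change -0.23, adjusted p = 0.0209), with its call lost in 5 of 15 alternatives, among them the fits without siSox9 replicate 2 (adjusted p = 0.0695) and siSox9 replicate 3 (0.0663). Of these 7 calls, those of Tgfb3 and Smad4 held in 5 and 4 of 15 alternatives, and without siNC replicate 1 neither passed (adjusted p = 0.0919 and 0.0600), which left 3 higher and 2 lower.

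The genes most like each tested member over the 6 libraries, by Pearson's r of log2(FPKM + 1) among 7495 genes averaging 5 FPKM or more, were Zdhhc2 (r = 0.9995) and Slc35c1 (r = 0.9993) for Fn1 and Sbk1 (r = 0.998) and Manea (r = 0.997) for Vim. For Snai2 they were Sh3gl1 (r = 0.998) and Ripor1 (r = 0.996), for Zeb1 Igbp1 (r = 0.986) and Actr1a (r = 0.985), and for Zeb2 Asb8 (r = 0.971) and Nans (r = 0.966). These values describe 6 libraries in 2 groups, which share their depth and their group difference, and carry no p.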

How the data were processed

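RNA-Seq of 6 libraries from mouse primary renal TECs after H/R was analysed, 3 siSox9 and 3 siNC. For each gene and library the authors deposited an FPKM value. The columns of the siSox9 libraries are named si3, and siSox9 is the only siRNA in the labels besides siNC. Per the submitters' processing notes, Bowtie2 2.2.3, HISAT2 2.1.0 and TopHat2 were used with mm9; the gene positions in the table equal those of GENCODE M21 (GRCm38) for 93.3% of genes and are given in that build, and the counting tool is not given in the sources used here. The 8 genes and the gene lists were chosen with earlier results of these data known.

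siSox9 was compared with siNC by limma 3.58.1 (R 4.3.3; lmFit, then eBayes with a trend, two-sided) on log2(FPKM + 1). The 12009 genes averaging 1 FPKM or more were fitted, with Benjamini-Hochberg adjustment over all of them and a threshold of 0.05, without a replicate block. The added 1 understates the fold change of a low gene. Whole reads were recovered with GENCODE M21 exon lengths (27949 genes whole in all 6 libraries within 0.02 reads; 93.3% of the values); Snai2 has another position there, and its length of 2031 bases is the only one within 30% of the annotated length that gave whole reads. Ratios of paralogs were compared with exact permutation tests that went through every split of the libraries, written in Python 3.11.15. The limma fits were tested on simulated data with few changed genes and a fixed spread between libraries. The main fit called 95 of 100 genes changed by 1 log2 unit, 83 of 99 changed by 0.5 and 7 of 10278 unchanged genes. No smaller change was simulated, so the sizes of the Vim and Snai2 changes were not covered. Named genes of the lists were the largest changes past the threshold without overlap of the groups, up to 2 in each direction, with Cdh1, Cdh2, Acta2, Col1a1, Epcam and the defining markers; other list genes were named after their values were seen, and 1 gene that the rule names is not reported here. Alternatives were TPM, quantile-normalized or median-centred values, another pseudocount (0.1), a minimum of 5 FPKM or none, limma without moderation, the replicate block, limma voom on recovered reads and the omission of each library in turn.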

Additional observations from a re-analysis of the deposited data

How the results depend on the processing

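The falls of Fn1 and Vim passed the test under every alternative tried. The Snai2 change passed in 5 of 14 and kept its direction in all. It was -0.27 without the minimum and in the unmoderated linear model, -0.26 on TPM and -0.21 after quantile normalization. With a pseudocount of 0.1 it was -0.42, in voom -0.44, and with each library left out from -0.31 to -0.22. It could not be fitted with a minimum of 5 FPKM, nor could the Zeb genes. The Zeb2 change turned to 0.0060 on TPM, 0.015 on median-centred values and 0.048 on quantile-normalized values, and ranged from -0.027 to 0.0076 with each library left out. Voom, whose values carry no pseudocount of 1, moved Snai1 to -0.32 and Twist2 to 0.20. The log2 difference of the Snai1 to Snai2 ratio was 0.13 and ranged from -0.048 to 0.26 with each library left out; the Zeb1 to Zeb2 ratio kept its sign. Apart from the added 1, which shrinks the change of a low gene, the cause of these shifts was not tested. Genes called over the whole table were 3650, and from 2431 to 3653 with each library left out (2431 without siSox9 replicate 2). Calls among the partners of the EMT factors were 2 on TPM, 8 in voom and 3 to 9 with each library left out, those among the EMT inducers 4 without the minimum, on TPM and in the unmoderated linear model and 4 to 6 with each library left out, and those among mesenchymal genes 6 without the minimum.

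Libraries with the same replicate number showed no common deviation from the group means (correlations from -0.050 to 0.065). Those with different numbers ranged from -0.082 to 0.090. With 3 libraries per group, such correlations cannot decide whether the numbers pair cultures or animals. With the replicate block 3262 genes passed in place of 3650, and the adjusted p was 0.00112 for Fn1, 0.0101 for Vim and 0.0363 for Snai2, with no call of the 8 genes changed. Depth limits Snai1, Twist1 and Twist2, with at most 45 reads in any library.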

Other observations

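Acta2, at 652 to 742 FPKM over the 6 libraries, stood beside Tagln, another contractile gene often measured with it, at 1.08 to 1.72 FPKM, and beside S100a4, a fibroblast gene, at 0 to 0.143 FPKM. Thbs1, which encodes the secreted matrix protein thrombospondin-1, was at 1506 to 1551 FPKM with siSox9, above Fn1 there, and at 1230 to 1280 FPKM with siNC. Ywhaz and Ywhab, which encode 14-3-3 proteins, moved in opposite directions past the threshold (log2 changes -0.47 and 0.13; without siSox9 replicate 2 Ywhab did not pass, with an adjusted p of 0.0571), and these genes were picked after their values were seen.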
